A study of Homo sapiens with 12 samples.

Results

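AP-1 is a group of dimeric transcription factors built from the FOS, JUN and ATF families of basic leucine zipper (bZIP) proteins. The 10 AP-1 genes FOS, FOSB, FOSL1, FOSL2, JUN, JUNB, JUND, ATF3, ATF2 and BATF3 were chosen by name, and all 10 had a row among the 14029 genes tested. They were measured by poly(A) RNA sequencing of ES-2, a human ovarian cancer line, under cisplatin, a drug that crosslinks DNA. The groups compared were cells carrying SRMS shRNA (genotype label SRMS knockdown, 3 libraries) and cells carrying the control vector pLKO (genotype label WT, 3 libraries), both with 15 µM cisplatin for 8 hours. SRMS is a non-receptor tyrosine kinase. The series has 12 samples, and the 6 given PBS were not analysed here, so nothing below measures a response to cisplatin. The labels name 1 line and give neither the hairpin's sequence nor the number of hairpins or clones, nor whether replicates were grown separately. The p-values therefore rest on spread between libraries that may be technical.

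FOS proteins bind DNA mainly with a JUN partner, whereas JUN proteins can also pair among themselves. FOS, FOSB, JUN, JUNB and ATF3 are classic immediate early genes, switched on within minutes by mitogens or stress through MAP kinases. FOSL1 and FOSL2 are the slower FOS-related members, and JUND and ATF2 are present in most resting cells. ATF2 is activated as a protein by JNK and p38 phosphorylation. BATF3 is a short AP-1 member best known in dendritic cells.

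Levels are given as the authors' deposited signal, a linear value scaled like CPM, and differences were tested with limma on log2(signal + 0.5) over all genes, with a Benjamini-Hochberg adjusted p under 0.05 as the threshold. Reads recovered from the deposited signal came to between 28009232 and 56855428 per library, and the 10 genes had between 56 and 21542 reads each in a library. Read counts of replicates 2 and 3 of a group lay closer together than either did to replicate 1: over genes with 200 to 5000 reads in a pair, replicates 2 and 3 had a chi-square per gene of 1.65 in SRMS shRNA and 1.79 in vector, against 3.55 to 5.07 for pairs with replicate 1. SRMS itself had signals of 0.328, 1.07 and 0.863 in SRMS shRNA replicates 1, 2 and 3. The vector replicates had 0.0669, 0.306 and 0.819. The gene that the hairpin targets thus showed no fall (log2 fold change 0.52, limma adjusted p = 0.168). It was counted in few reads, 9, 39 and 27 in SRMS shRNA and 2, 14 and 47 in vector. Its signals lay near the pseudocount of 0.5, so these values cannot decide whether the knockdown worked. The group names below are therefore those of the labels. Of the genes listed as carcinoma markers, KRT7, KRT8 and KRT18 were abundant. So was VIM, which is also a mesenchymal marker and does not mark carcinoma by itself. PAX8 lay near 0 (0.241 in SRMS shRNA and 0.136 in vector on average), while EPCAM, CDH1, KRT19, MUC16 and MSLN were not analysed here. Summed leukocyte markers ran from 60.6 to 65.1 in SRMS shRNA and from 49.5 to 52.2 in vector (4 of 6 measured, most of it CD68), endothelial markers from 5.88 to 8.36 in SRMS shRNA and from 14.8 to 16.8 in vector (3 of 5). Fibroblast markers ran from 821 to 827 in SRMS shRNA and lay at 1250 in each vector library (3 of 5, nearly all COL1A1). CDH5, an endothelial cadherin, made up most of the endothelial sum and averaged 6.12 ± 0.763 in SRMS shRNA and 15.2 ± 1.09 in vector (log2 fold change -1.25, limma adjusted p = 4.11e-06). CD14, a monocyte receptor, averaged 3.24 ± 0.37 in SRMS shRNA and 0.879 ± 0.197 in vector (log2 fold change 1.45, limma adjusted p = 1.23e-05). Of the other endothelial and fibroblast markers measured, PECAM1, KDR and COL1A2 lay near 0. They averaged 0.393, 0.649 and 0.0671 in SRMS shRNA and 0.211, 0.672 and 0.147 in vector. PDGFRA, a fibroblast marker, did not: it averaged 7.81 ± 0.386 in SRMS shRNA and 10.0 ± 1.02 in vector (log2 fold change -0.34, limma adjusted p = 0.0084). The part of these markers in the results was not tested.

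The starts of 3 FOS family genes are shown because they hold the same 6 letters at nearly the same distance from the RefSeq start. Their mRNAs did not move the same way. The start of JUN is shown for its AP-1-like site. Each is 250 bases before to 50 bases after the RefSeq start (GRCh38.p14), read 5′ to 3′ on the strand of the gene, with motif matches in capitals. The regions are chr14:75278578-75278877 on the plus strand for FOS, chr19:45467746-45468045 on the plus strand for FOSB, chr2:28392608-28392907 on the plus strand for FOSL2 and chr1:58783998-58784297 on the minus strand for JUN.
FOS: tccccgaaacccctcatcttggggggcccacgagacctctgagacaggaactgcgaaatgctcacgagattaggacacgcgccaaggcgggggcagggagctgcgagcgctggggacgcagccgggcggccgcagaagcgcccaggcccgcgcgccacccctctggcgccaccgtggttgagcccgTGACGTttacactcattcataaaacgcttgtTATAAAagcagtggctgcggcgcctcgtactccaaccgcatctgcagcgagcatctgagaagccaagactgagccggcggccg
FOSB: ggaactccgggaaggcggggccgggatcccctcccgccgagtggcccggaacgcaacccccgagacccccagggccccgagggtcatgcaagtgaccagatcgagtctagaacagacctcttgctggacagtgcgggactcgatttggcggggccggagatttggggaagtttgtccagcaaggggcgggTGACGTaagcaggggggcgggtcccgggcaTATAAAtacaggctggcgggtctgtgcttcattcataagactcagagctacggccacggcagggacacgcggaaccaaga
FOSL2: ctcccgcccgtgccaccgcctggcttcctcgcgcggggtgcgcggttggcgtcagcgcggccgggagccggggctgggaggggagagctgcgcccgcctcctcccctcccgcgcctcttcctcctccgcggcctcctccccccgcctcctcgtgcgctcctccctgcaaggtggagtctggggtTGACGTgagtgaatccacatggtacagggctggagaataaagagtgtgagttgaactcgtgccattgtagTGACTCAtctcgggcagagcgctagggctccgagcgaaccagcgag
JUN: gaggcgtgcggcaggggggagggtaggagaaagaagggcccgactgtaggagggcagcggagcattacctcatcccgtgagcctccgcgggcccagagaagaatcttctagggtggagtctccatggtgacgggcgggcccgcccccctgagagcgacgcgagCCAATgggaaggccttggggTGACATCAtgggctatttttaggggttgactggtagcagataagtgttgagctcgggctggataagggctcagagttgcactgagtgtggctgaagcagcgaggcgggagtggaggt

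Both strands were searched for TGACGTCA, the cAMP response element that ATF2 dimers bind, for its core TGACGT, for the AP-1 site TGANTCA, for TGACATCA, for the CArG box bound by SRF, for the TATA box as TATAAA and for the CCAAT box as CCAAT. The core TGACGT lay at -64 to -59 in FOS, at -60 to -55 in FOSB and at -66 to -61 in FOSL2, counting the first transcribed base as 1 and the base before it as -1. Of 35116 RefSeq windows of this length, 7.98% held TGACGT anywhere and 0.837% held it between -70 and -51, a range chosen after the matches were seen. TATAAA lay at -33 to -28 in FOS and at -30 to -25 in FOSB (11.5% of all windows), and no match to it was found in the FOSL2 window, which instead held TGACTCA at 5 to 11 (TGANTCA, 7.71% of all windows). In JUN, TGACATCA lay at -67 to -60 (2.61% of all windows) and CCAAT at -87 to -83 (34.6%). JUNB held CCAAT at -67 to -63 and TATAAA at -31 to -26. JUND held the whole TGACGTCA at -200 to -193 (1.85%), which contains TGACGT on both strands, a further TGACGT on the other strand at -87 to -82, and CCAAT at -74 to -70. The CArG box, found in 1.29% of windows, had no match in the windows of any of these genes. Bases further upstream were not searched, so a CArG box there would have been missed. Windows were found for 7 of the 10 genes, and both windows of ATF3 start elsewhere than the transcript used for its length. The RefSeq start of JUN, base 58784047, lies downstream of the GENCODE start at 58784327. That of FOS, base 75278828, likewise lies downstream of its GENCODE start at 75278774. The positions given, and the distance that FOS shares with FOSB and FOSL2, thus hold from the RefSeq starts only.

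FOS and FOSB, the immediate early FOS genes, were both higher in SRMS shRNA. FOS (ENSG00000170345, chromosome 14, 75278774 to 75282230) had signals of 57.1, 58.7 and 63.6 in SRMS shRNA replicates 1, 2 and 3, against 27.6, 30.2 and 30.2 in vector replicates. The groups did not overlap, and the lowest SRMS shRNA library stood well above the highest vector library. The log2 fold change of signal + 0.5 was 1.02 (SE 0.0564, 95% interval 0.89 to 1.14, limma adjusted p = 5.92e-07). FOSB (ENSG00000125740, chromosome 19, 45467995 to 45475179) had 30.0, 29.5 and 30.1 in SRMS shRNA, against 13.0, 14.9 and 13.6 in vector. Its SRMS shRNA libraries were nearly equal, and its log2 fold change was 1.08 (SE 0.0624, limma adjusted p = 7.59e-07). FOSB shares 7185 bases with ERCC1, an excision repair gene on the opposite strand. The libraries were stranded, but whether counting used the strand is not given in the sources used here. Reads of such overlapping pairs may therefore not have been told apart. ERCC1 averaged 94.6 ± 9.12 in SRMS shRNA and 79.7 ± 5.88 in vector (SD, n = 3 each), a log2 fold change of 0.24.

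FOSL2, which encodes FRA-2, was lower in SRMS shRNA, and FOSL1, which encodes FRA-1, showed no difference past the threshold. FOSL2 (ENSG00000075426, chromosome 2, 28392448 to 28417312) had 39.4, 36.4 and 39.4 in SRMS shRNA, against 65.4, 62.1 and 61.4 in vector. The groups stood apart, with a log2 fold change of -0.71 (SE 0.0483, 95% interval -0.81 to -0.60, limma adjusted p = 1.86e-06). FOSL1 (ENSG00000175592, chromosome 11, 65892049 to 65900573) had 355, 370 and 363 in SRMS shRNA, against 347, 377 and 375 in vector, so its groups overlapped. Its log2 fold change was -0.01 with a 95% interval of -0.10 to 0.07 (limma adjusted p = 0.792). The sign for FOSL1 depends on the scaling: under median alignment of the libraries, which moved the median of all genes by 0.16, it was 0.15 (limma adjusted p = 0.0116). A further fit, called length-corrected below, took out each library's trend with transcript length and GC content and held the replicate number as a block, and FOSL1 then had -0.22 (limma adjusted p = 1.76e-11).

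Among the JUN genes, JUN and JUNB rose and JUND did not pass the threshold. These 3 genes have a single exon each. JUN (ENSG00000177606, chromosome 1, 58780788 to 58784327), the founding member and a JNK substrate, had 324, 354 and 350 in SRMS shRNA, against 230, 252 and 252 in vector, and its log2 fold change was 0.48 (SE 0.0472, limma adjusted p = 1.64e-05). JUNB (ENSG00000171223, chromosome 19, 12791496 to 12793315), which restrains JUN in many settings, had 110, 137 and 137 in SRMS shRNA, against 75.0, 91.2 and 91.1 in vector. Replicate 1 was the lowest library of each group for JUNB, and the groups did not overlap (log2 fold change 0.57, SE 0.0934, limma adjusted p = 0.000475). In the length-corrected fit JUNB had a log2 fold change of 0.34. HOOK2, a microtubule adaptor gene on the opposite strand, covers all 1820 bases of JUNB and averaged 23.2 ± 1.6 in SRMS shRNA and 20.2 ± 0.796 in vector. JUND (ENSG00000130522, chromosome 19, 18279760 to 18281622), which is broadly expressed, had 36.4, 44.3 and 43.4 in SRMS shRNA, against 40.2, 46.5 and 47.7 in vector. Its groups overlapped, replicate 1 was again lowest in each, and the log2 fold change was -0.11 (95% interval -0.30 to 0.07, limma adjusted p = 0.264). Within same-numbered pairs JUND was lower in SRMS shRNA in 3 of 3, and blocking on the replicate number, the limma adjusted p was 0.0117 at the same fold change. The length-corrected fit gave JUND -0.38 (limma adjusted p = 1.13e-10), and median alignment gave 0.05.

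ATF3, a stress-induced repressor and activator, and BATF3 rose, while ATF2 fell. ATF3 (ENSG00000162772, chromosome 1, 212565334 to 212620777) had 56.4, 48.1 and 48.8 in SRMS shRNA, against 25.7, 23.8 and 22.5 in vector. Here replicate 1 was the highest library of each group, and the groups stood apart, with a log2 fold change of 1.07 (SE 0.0713, limma adjusted p = 1.59e-06). BATF3 (ENSG00000123685, chromosome 1, 212686418 to 212699985) was the least abundant by reads, with 97, 147 and 124 in SRMS shRNA, against 56, 78 and 113 in vector. Its signals of 3.54, 4.04 and 3.96 in SRMS shRNA, against 1.87, 1.7 and 1.97 in vector, did not overlap, and the log2 fold change was 0.89 (SE 0.104, limma adjusted p = 5.35e-05). In the length-corrected fit it was 0.55. ATF2 (ENSG00000115966, chromosome 2, 175072250 to 175168382) had 12.4, 13.3 and 12.4 in SRMS shRNA, against 20.8, 19.4 and 18.7 in vector, with a log2 fold change of -0.61 (SE 0.0666, limma adjusted p = 3.37e-05).

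**Figure D1:**
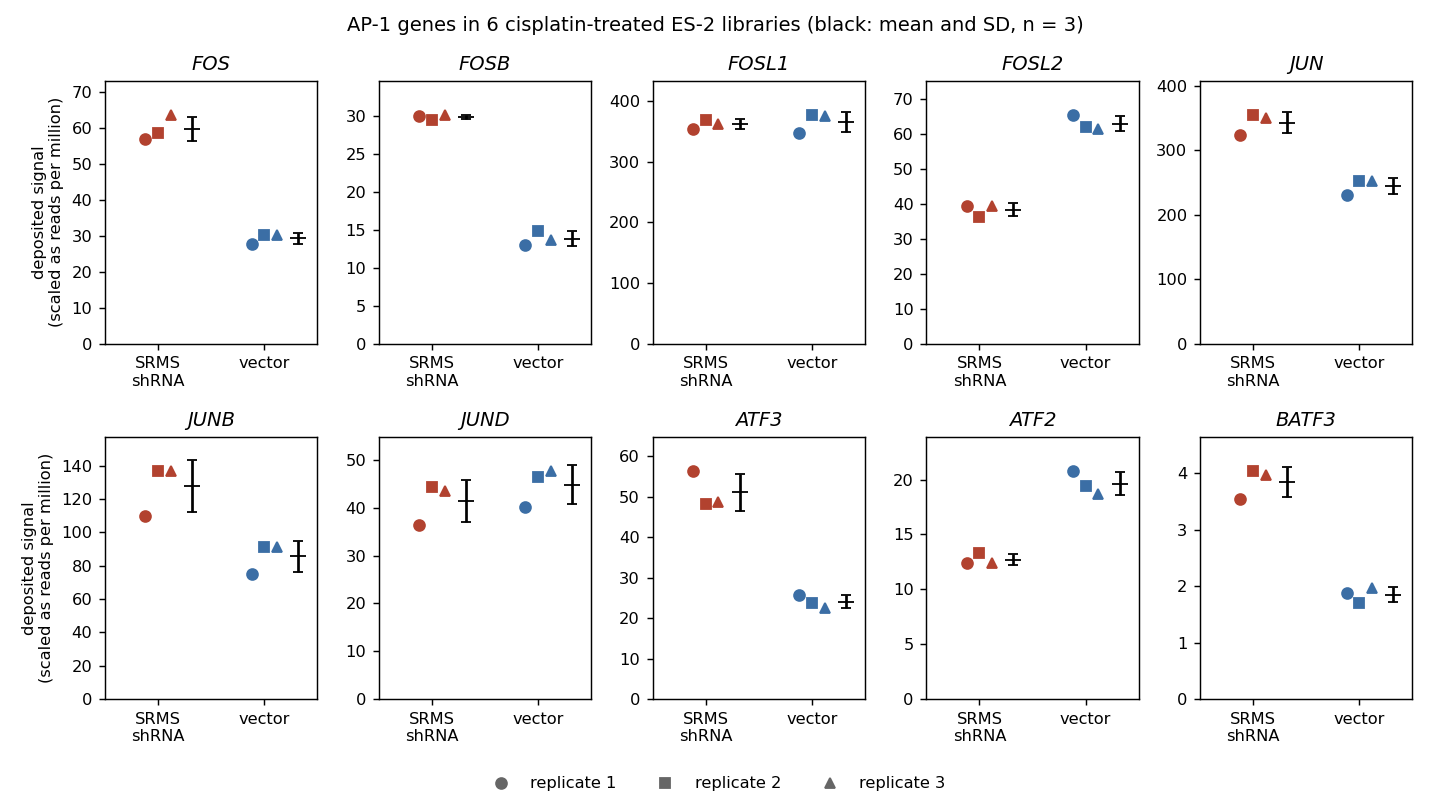
Signal of each AP-1 gene in the 6 libraries (vertical axes start at 0, in the deposited unit), with SRMS shRNA left of vector and the marker shape giving the replicate number; black bars are the mean and SD of 3. FOS, FOSB, ATF3, BATF3, JUN and JUNB lie higher in SRMS shRNA without overlap, FOSL2 and ATF2 lower, and FOSL1 and JUND overlap.

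In all, 6 of the 10 genes were higher in SRMS shRNA and 2 lower by limma at an adjusted p under 0.05. Calls were common in these libraries: 56.8% of all genes tested passed that threshold, 26.6% higher and 30.2% lower. The groups did not overlap for 8 of the 10, against 62.7% of all genes, so non-overlap by itself was near the background. The size of the change was less common. Past the threshold, a log2 fold change of 1 or more in size was reached by 3 of the 10 (FOSB, ATF3 and FOS), against 2.08% of all genes. Which genes reach it depends on the fit. BATF3, at 0.89 here, had 1.02 with a pseudocount of 0.1 and 1.07 by edgeR and by DESeq2. In the length-corrected fit FOS had 0.91, ATF3 0.96 and FOSB 1.11. Ranked from lowest to highest log2 fold change over all genes, FOS stood at percentile 99.3, FOSB and ATF3 at 99.5 each, and BATF3 at 98.8. FOSL2 stood at percentile 4.33 and ATF2 at 6.34. The median log2 fold change of the 10 was 0.53, and that of all genes was 0.00. In bulk RNA, fewer cells expressing a gene and less RNA per cell cannot be told apart.

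**Figure D2:**
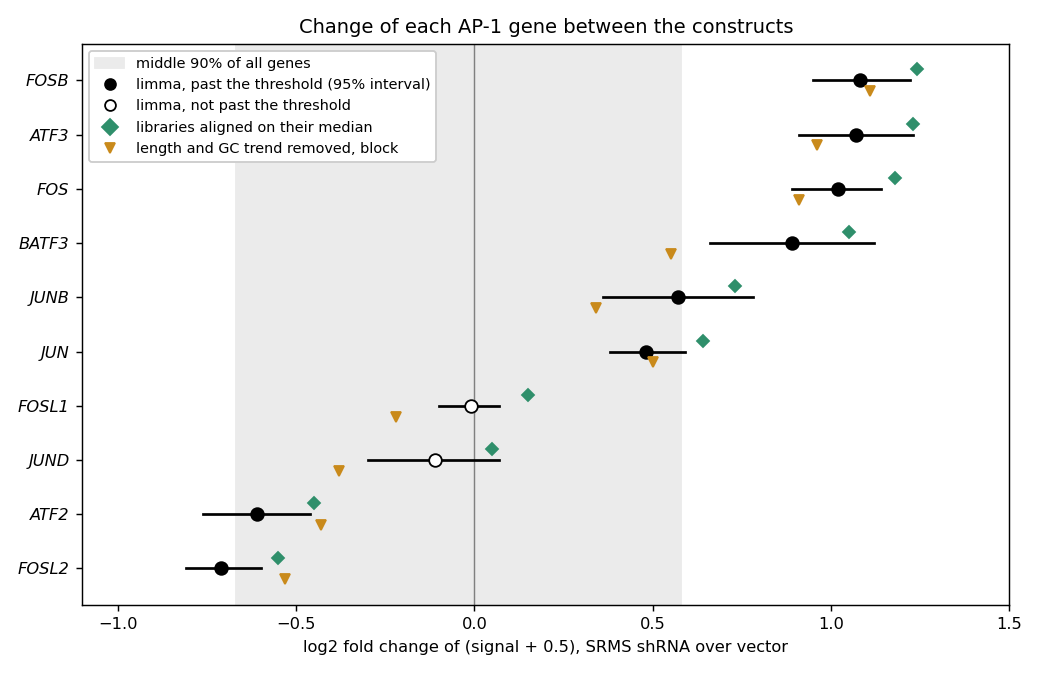
Log2 fold change of signal + 0.5, SRMS shRNA over vector, for each AP-1 gene, with the limma 95% interval (filled points passed the threshold) and the values under median alignment (diamonds) and in the length-corrected fit (triangles); the grey band holds the middle 90% of all genes, from -0.67 to 0.58. FOS, FOSB, ATF3 and BATF3 lie right of the band, FOSL2 lies just left of it at -0.71, and FOSL1 and JUND change sign between settings.

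Transcript length moved with the fold change over all genes. In the group of 2811 genes with the shortest transcripts (median 1260 bases) 52.7% were higher and 6.76% lower in SRMS shRNA, and in the 2806 with the longest (median 7074 bases) 9.59% were higher and 54.4% lower. The AP-1 genes span this range. FOSL2, with 6708 bases, was in the longest group, whose median log2 fold change was -0.23, and BATF3, with 980 bases, was in the shortest, whose median was 0.23. FOSB, with 3775 bases, was in a group in which 13.3% of genes were higher, and FOSL1, with 1669 bases, was in the shortest group but did not pass the threshold. In the length-corrected fit the log2 fold changes were 0.91 for FOS, 1.11 for FOSB, 0.96 for ATF3, 0.50 for JUN, -0.53 for FOSL2 and -0.43 for ATF2, all still past the limma threshold in the same direction.

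**Figure D3:**
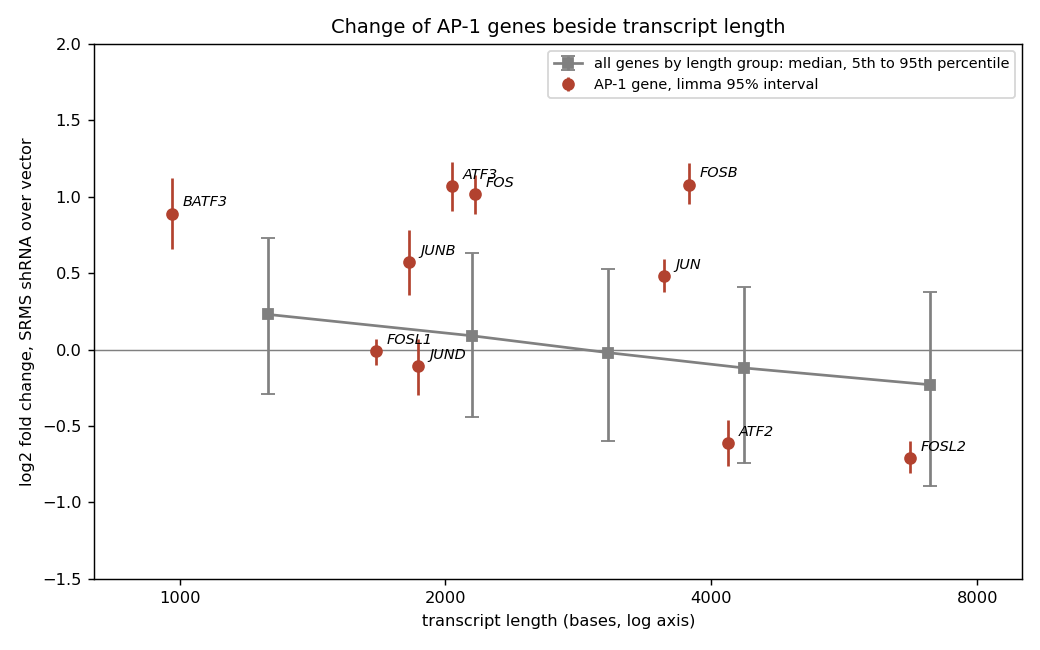
Log2 fold change, SRMS shRNA over vector, against transcript length (log axis) for the AP-1 genes, with limma 95% intervals, beside the median and the 5th to 95th percentile of all genes in 5 length groups. The group medians fall with length, from 0.23 to -0.23, and FOS, FOSB, ATF3 and BATF3 lie above the 95th percentile of their groups.

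The mRNAs differed in features of the 3′ end as well. The pentamer ATTTA, the core of AU-rich elements that shorten mRNA life, occurred in the 3′ UTR of all 10 genes (between 1 and 9 times) and of 66.8% of all genes. The nonamer TTATTTATT occurred in that of FOS and FOSL2, and of 8.15% of all genes. FOS rose and FOSL2 fell, so these carriers did not move together. FOSL2 had a 3′ UTR of 4864 bases and FOS one of 806 bases.

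The makeup of the FOS family changed while its sum moved little. Levels were compared per kb of transcript, and the summed level of FOS, FOSB, FOSL1 and FOSL2 was 259 ± 5.02 per kb in SRMS shRNA and 246 ± 10.8 per kb in vector (SD, n = 3 each; two-sided exact permutation p = 0.1, the smallest that 3 against 3 allows). FOSL1 made up most of the sum in every library, with 84.1%, 84.6% and 83.4% in SRMS shRNA, against 88.9%, 89.2% and 89.4% in vector. FOS made up 10.5%, 10.4% and 11.3% in SRMS shRNA, against 5.47%, 5.53% and 5.55% in vector. The share of FOSB averaged 3.06% ± 0.0777 in SRMS shRNA and 1.49% ± 0.0648 in vector, and that of FOSL2 averaged 2.22% ± 0.129 in SRMS shRNA and 3.82% ± 0.301 in vector. Per kb, FOSB was above FOSL2 in the SRMS shRNA libraries and below it in the vector libraries. That order rests on the division by length: on the signal itself FOSB had the smaller share in every library, averaging 6.08% against 7.83% for FOSL2 in SRMS shRNA, and 2.93% against 13.4% in vector. Each of the 4 shares was without overlap between the groups, and each reached the smallest exact permutation p, 0.1. These shares do not depend on how libraries were scaled to each other.

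The JUN family differed in its sum as well. The summed level of JUN, JUNB and JUND was 171, 199 and 197 per kb in SRMS shRNA, against 128, 146 and 147 per kb in vector (two-sided exact permutation p = 0.1). JUND had a share of 11.7% ± 0.279 in SRMS shRNA and 17.1% ± 0.282 in vector, a difference of -5.4 percentage points in a family whose other members rose (exact permutation p = 0.1, n = 3 each). The share of JUN averaged 51.3% ± 1.83 in SRMS shRNA and 49.4% ± 1.33 in vector, with overlapping groups (unpaired exact permutation p = 0.3, n = 3 each). Within same-numbered pairs the JUN share was higher in SRMS shRNA in 3 of 3 (53.4%, 50.3% and 50.1% in SRMS shRNA replicates 1, 2 and 3, against 50.9%, 48.7% and 48.5% in vector replicates). The share of JUNB averaged 37.0% ± 1.56 in SRMS shRNA and 33.5% ± 1.12 in vector (exact permutation p = 0.1, n = 3 each).

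**Figure D4:**
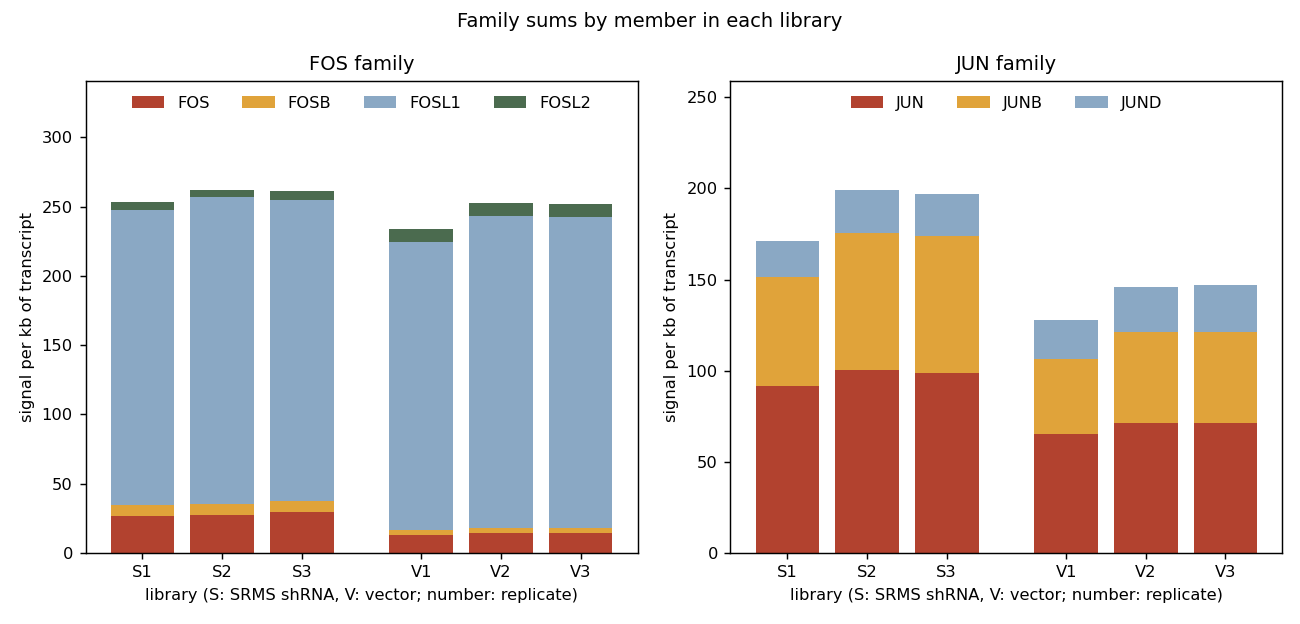
Signal per kb of transcript in each library (axes from 0), stacked by gene for the FOS family (left) and the JUN family (right), with the 3 SRMS shRNA libraries left of the 3 vector libraries. FOSL1 fills most of the FOS family bars, the FOS and FOSB segments are taller in SRMS shRNA, and the JUN family bars are taller in SRMS shRNA with a JUND segment of similar height.

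Ordered by level per kb, FOSL1, JUN and JUNB led in both groups. In SRMS shRNA they averaged 217, 96.8 and 70.2 per kb and were followed by FOS at 27.7, ATF3 at 25.1 and JUND at 22.2, where FOS and ATF3, and ATF3 and JUND, overlapped between libraries. FOSB at 7.91, FOSL2 at 5.73, BATF3 at 3.93 and ATF2 at 3.04 came after them without overlap between neighbours. In vector the first 3 averaged 219, 69.2 and 47.1 per kb, and JUND came next at 24.1, ahead of FOS at 13.6, ATF3 at 11.8, FOSL2 at 9.39, ATF2 at 4.70, FOSB at 3.67 and BATF3 at 1.89, with no overlap between neighbours. FOS and ATF3 thus stood above JUND in SRMS shRNA on average and below it in vector, and BATF3 stood above ATF2 in SRMS shRNA and below it in vector. The change of place of BATF3 and ATF2 also rests on the division by length, since on the signal itself BATF3 (3.85 in SRMS shRNA and 1.85 in vector) lay below ATF2 (12.7 in SRMS shRNA and 19.6 in vector) in both groups.

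ATF3 and BATF3 lie 65640 bases apart on chromosome 1, with 1 measured gene between them. That gene, GARIN4, averaged 1.05 ± 0.226 in SRMS shRNA and 0.344 ± 0.198 in vector (log2 fold change 0.89, limma adjusted p = 0.00181). It was counted in few reads, 22, 40 and 39 in SRMS shRNA and 5, 14 and 32 in vector. NENF, a secreted neurotrophic factor gene on the far side of ATF3, changed by 0.26 on the log2 scale (limma adjusted p = 0.00743), and NSL1, a kinetochore gene beyond BATF3, by -0.22 (limma adjusted p = 0.018). The neighbours outside the pair thus moved less, and 1 of them moved the other way.

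The 4 genes whose profile over the 6 libraries was nearest to that of FOS, by root mean square distance of centred log2 values, were LTA at 0.0411, FAM90A1 at 0.055, NUTM2B at 0.0559 and LRRC23 at 0.0582. LTA, which encodes lymphotoxin alpha, had signals of 1.09, 1.18 and 1.28 in SRMS shRNA, against 0.234, 0.371 and 0.331 in vector, so it was far less abundant than FOS. NUTM2B has near-identical copies, which makes its count uncertain. Nearest to FOSL2 were WAPL, a cohesin release factor, at 0.0187, then ARHGAP29 at 0.0252, USP36 at 0.0267 and TOP3A at 0.028. WAPL averaged 50.3 ± 1.48 in SRMS shRNA and 81.7 ± 1.76 in vector (SD, n = 3 each). With 2 groups of 3, likeness in this sense mostly means a like log2 fold change between the constructs once the pseudocount is added. The pseudocount understates the change of low genes, so on the signal itself LTA and FAM90A1 differed by a larger ratio than FOS. LTA averaged 1.19 in SRMS shRNA and 0.312 in vector, and FAM90A1 averaged 1.8 in SRMS shRNA and 0.63 in vector. FOS averaged 59.8 in SRMS shRNA and 29.3 in vector.

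Other bZIP genes that pair with or resemble AP-1 moved less than the immediate early members. Of 15 measured, 7 rose and 2 fell. Over all genes 56.8% were called, 26.6% higher and 30.2% lower, so the number called here was near the background. The median log2 fold change of the 15 was 0.18, against 0.00 over all genes, and BATF, JDP2 and MAF were not analysed here. ATF4, the effector of the integrated stress response, averaged 269 ± 18.4 in SRMS shRNA and 217 ± 3.55 in vector (log2 fold change 0.31, limma adjusted p = 0.000335). DDIT3, its stress target known as CHOP, averaged 14.9 ± 1.46 in SRMS shRNA and 10.9 ± 0.412 in vector. MAFF, a small MAF protein, averaged 33.4 ± 1.85 in SRMS shRNA and 25.8 ± 1.26 in vector. CREB1, the cAMP-responsive factor, fell to 11.8 ± 0.816 in SRMS shRNA, against 17.3 ± 0.533 in vector (log2 fold change -0.53, limma adjusted p = 0.000119).

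Factors that act on immediate early promoters were mostly lower in SRMS shRNA. Of 9 measured, 0 rose and 7 fell by limma, and the median log2 fold change was -0.22. For comparison, limma called 26.6% of the genes tested higher and 30.2% lower. The count of 0 higher was the same at an unadjusted limma p under 0.05 and by edgeR and DESeq2 on recovered reads. It was 1 with no mean-variance trend (7 lower), in the length-corrected fit (5 lower) and under median alignment (3 lower). MRTFA, an actin-sensing coactivator of SRF, averaged 1.97 ± 0.138 in SRMS shRNA and 5.17 ± 0.335 in vector (log2 fold change -1.20, limma adjusted p = 6.06e-06). Its relative MRTFB averaged 1.86 ± 0.285 in SRMS shRNA and 4.17 ± 0.384 in vector. MEF2D, a MADS-box factor that binds the JUN promoter, averaged 22.1 ± 2.08 in SRMS shRNA and 38.1 ± 1.84 in vector. ELK3, a ternary complex factor, averaged 70.4 ± 1.44 in SRMS shRNA and 79.3 ± 0.998 in vector.

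MAP kinases and the kinases around them also tended to lower levels. Of 20 measured, 0 rose and 10 fell by limma, where 26.6% of all genes were higher and 30.2% lower. The counts were 0 and 11 at an unadjusted limma p under 0.05, 0 and 10 by edgeR, and 0 and 7 by DESeq2. The median log2 fold change of the 20 was -0.15. With the replicate block the counts were 2 higher and 10 lower, in the length-corrected fit 4 and 11, and under median alignment 5 and 4, so the balance of this list depends on the fit. MAPK14, the p38 alpha kinase, averaged 15.4 ± 0.337 in SRMS shRNA and 28.6 ± 1.91 in vector (log2 fold change -0.87, limma adjusted p = 2.4e-06). MAP2K4, which activates JNK and p38, averaged 10.8 ± 0.339 in SRMS shRNA and 14.7 ± 0.372 in vector, and MAP2K3, which activates p38, averaged 59.1 ± 0.526 in SRMS shRNA and 69.1 ± 0.999 in vector. MAPK7, the ERK5 kinase, averaged 28.2 ± 0.861 in SRMS shRNA and 35.4 ± 0.901 in vector.

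Genes that act on AP-1 proteins or mRNAs were mixed. The share called was near that of all genes (56.8%, with 26.6% higher and 30.2% lower). Of 7 regulators of AP-1 proteins, 2 rose and 2 fell (4 and 2 under median alignment, 0 and 3 in the length-corrected fit), and DET1 was not analysed here. ITCH, a ubiquitin ligase for JUN proteins, averaged 23.3 ± 0.432 in SRMS shRNA and 36.0 ± 0.520 in vector (log2 fold change -0.61, limma adjusted p = 3.63e-06), and the deacetylase SIRT1 had -0.28. COPS5, the JUN-binding subunit of the COP9 signalosome, had 0.16. Of 6 proteins that bind AU-rich elements, 2 rose and 1 fell. The balance turned with the fit: 4 were higher and 2 lower in the length-corrected fit, 2 and 3 with the replicate block, and 3 and 0 under median alignment. ZFP36, or tristetraprolin, averaged 8.77 ± 1.14 in SRMS shRNA and 6.04 ± 0.486 in vector (log2 fold change 0.50, limma adjusted p = 0.00229), and its relative ZFP36L1 had 0.15 and HNRNPD, or AUF1, -0.14.

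Textbook AP-1 target genes also moved in both directions. Of 22 measured, 10 rose and 4 fell. Over all genes 56.8% were called, 26.6% higher and 30.2% lower, so the number of targets called was near the background. The median log2 fold change of the 22 was 0.11, and MMP9 and CCL2 were not analysed here. MMP3, the matrix protease stromelysin, averaged 102 ± 3.57 in SRMS shRNA and 53.6 ± 3.83 in vector (log2 fold change 0.93, limma adjusted p = 8.28e-07). Its neighbour in the protease family, MMP10, averaged 9.24 ± 0.60 in SRMS shRNA and 2.89 ± 0.446 in vector. CCND1, or cyclin D1, averaged 758 ± 13.4 in SRMS shRNA and 548 ± 2.14 in vector. CXCL8, the chemokine interleukin 8, fell to 81.7 ± 0.665 in SRMS shRNA, against 118 ± 5.28 in vector (log2 fold change -0.53, limma adjusted p = 3.49e-06). Past an absolute log2 fold change of 1 were MMP10 and AREG upward and SPP1 downward, of which AREG and SPP1 are named after their values were seen. MMP1, the collagenase whose promoter defined the AP-1 site, is also named after its value was seen: its log2 fold change was 0.07 (limma adjusted p = 0.142) at a mean of 8660 in SRMS shRNA and 8250 in vector. Under median alignment 16 targets were higher and 2 lower, and the length-corrected fit gave 10 higher and 7 lower.

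**Figure D5:**
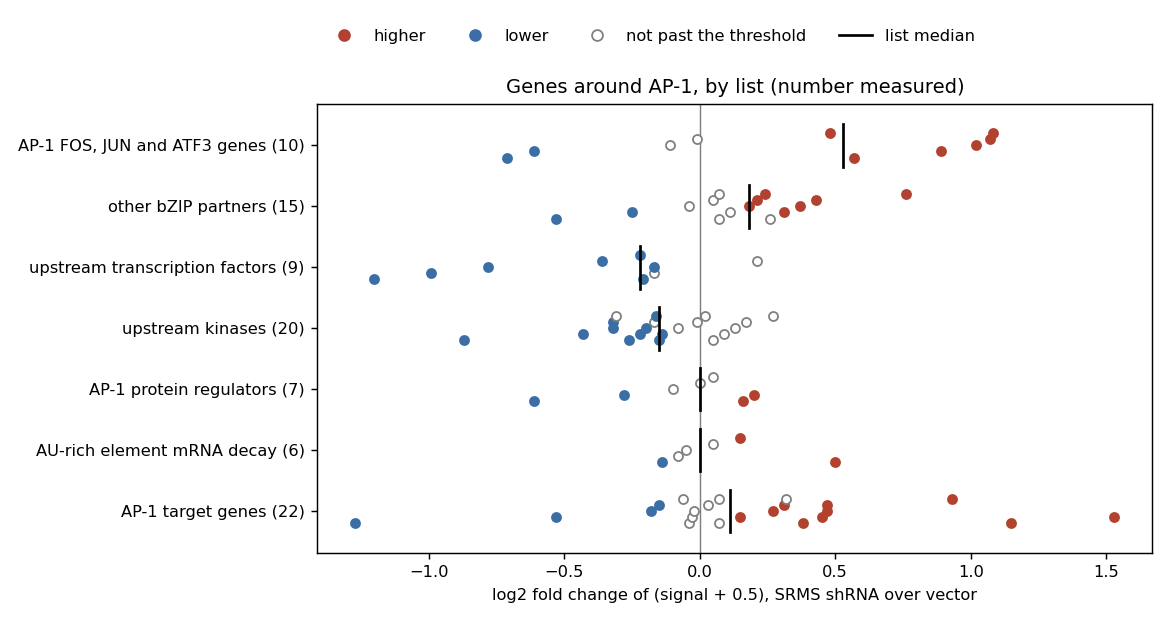
Log2 fold change of signal + 0.5, SRMS shRNA over vector, for every measured gene of each list, with the list's median as a black line and filled points past the limma threshold. The AP-1 genes reach 1.08 upward and have a median of 0.53, the upstream transcription factors and kinases have medians of -0.22 and -0.15, and the AP-1 targets spread from -1.27 to 1.53.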

How the data were processed

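Although the table's name says log CPM, its values are linear. Per the labels' protocols stranded TruSeq libraries of poly(A) RNA were read as paired ends on a NovaSeq. FastQC, cutadapt, HISAT2, StringTie and edgeR are named, without versions or settings, and so is build GRCh38, per the submitters' processing notes. The authors' deposited signal is a whole number of reads times a fixed step per library, the step being 1 read over the scaled library size as in CPM, and column sums run between 973481 and 1047474. At least 99.993% of values were whole reads to within 0.1 of a read.

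The table has 14042 rows, of which 13 (Y copies of pseudoautosomal genes) were dropped. All matched GENCODE release 29, from which coordinates, 1 transcript per gene (coding, principal, longest), lengths and UTRs were taken, and 14007 had a symbol. log2(signal + 0.5) was fitted with limma 3.58.1 in R 4.3.3 with a mean-variance trend over all genes, with no other filter on low values, and p-values were adjusted by Benjamini-Hochberg over all 14029 genes (threshold 0.05). Such fold changes understate the change of low genes. The fit was checked on simulated data. Alternatives were edgeR 4.0.16 and DESeq2 1.42.0 on recovered reads, pseudocounts of 1 and 0.1, other scalings, a minimum mean of 1, no trend, left-out or averaged replicates, the replicate block, and removal of each library's spline trend (4 degrees of freedom each) with transcript length and GC content.

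Deviations from the group means correlated across genes, for libraries of the same number, at r of 0.309, 0.106 and 0.12, all above 0.1. Replicate 2 of one group and replicate 3 of the other correlated as much (0.113 and 0.114). The main limma fit and the exact permutation tests used no pairing. The replicate number entered only the fits said to hold it as a block and the comparisons within same-numbered pairs. The AP-1 genes and the lists were chosen with earlier results of these data known, and the lists are no independent support. From each list up to 4 genes with the smallest adjusted p past the threshold are named, except 1 gene that is not reported here.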

Additional observations from a re-analysis of the deposited data

How the results depend on the processing

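The direction and call of FOS, FOSB, JUN, JUNB, ATF3, BATF3, FOSL2 and ATF2 held in all 18 alternative fits, with log2 fold changes of 0.91 to 1.18 for FOS, 1.04 to 1.24 for FOSB, 0.96 to 1.23 for ATF3, 0.55 to 1.07 for BATF3, 0.42 to 0.64 for JUN, 0.34 to 0.73 for JUNB, -0.73 to -0.53 for FOSL2 and -0.64 to -0.43 for ATF2. FOSL1 was 0.15 under median alignment. JUND passed the threshold with the replicate block, in the length-corrected fit, and without replicate 1 of both groups (log2 fold change -0.10, limma adjusted p = 0.0317). The length-corrected fit, which includes the replicate block, gave 4 lower AP-1 genes in place of 2, through FOSL1 and JUND. With the threshold on fold change, 105 of all genes were higher and 187 lower, and 3 and 0 AP-1 genes. Under median alignment, 6254 genes were higher and 2510 lower, against 3736 and 4233. The replicate block gave 4349 higher and 4805 lower genes. Without length scaling, the differences in share, in percentage points, were 5.98 for FOS, 3.16 for FOSB, -3.62 for FOSL1, -5.52 for FOSL2, 2.11 for JUNB and -3.85 for JUND. Counts of 1 to 4 in the short lists changed by 1 or 2 genes in several fits with a library left out. The cause of these differences was not tested. With 3 libraries a group, the exact test cannot go below 0.1.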
